A study of Homo sapiens with 73 samples.

Results

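Noncoding RNAs made by RNA polymerase III, 6 in all, were followed through an evolution experiment with the Ewing sarcoma line CHLA-9: RN7SL1, RN7SL2, RN7SK, RMRP, RPPH1 and RNU6ATAC. They were taken by symbol and make up 6 of the 36233 genes in the deposited table. The members were chosen by measured values, the levels and ranks of these genes over the libraries: RN7SL1 holds the largest value of some libraries and ACTB, the cytoplasmic beta-actin mRNA, that of others. Those levels and ranks are therefore given as a description, without a test, while the comparisons of arms and of time points, which the rule did not use, carry tests. The collective name of abundant RNAs held in this table only for RN7SL1: RN7SL2, RN7SK, RMRP and RPPH1 lay at the lowest value of every library, and RNU6ATAC was low.

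Total RNA was sequenced from 73 libraries. The treated arm, 49 libraries, consisted of lineages R1 to R7, all begun from the same parental culture and exposed in turn to VDC, which is vincristine, doxorubicin and cyclophosphamide, and to EC, which is etoposide and cyclophosphamide. An exposure took 5 days at the dose with 70% effect, and RNA was taken once the cells had regrown in medium without drug. There were 10 time points in 5 cycles; odd ones followed VDC and even ones EC. The DMSO arm, 23 libraries, consisted of lineages R8 to R10 carried through the same schedule with solvent, and 1 library came from the untreated parental line at time 0. All cells carried the EWSR1-FLI1 fusion, and every library descends from this 1 cell line, so the lineages are separate cultures and not separate tumours. Time point 2 was sequenced only in DMSO lineages and time point 3 only in treated lineages.

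Values are quantile-normalized counts: every library of an arm has nearly the same set of values, and a gene's value gives its rank among the genes of that library. Read depth is therefore unknown, and less of an RNA per cell cannot be told apart from fewer cells that make it. Of the 6 Ewing sarcoma markers, 5 were kept for testing and CD99 lay near the bottom (median 0.583, at the minimum in 25 libraries). The marker sum spanned 4660 to 8885 in treated, 6412 to 9721 in DMSO libraries and 8173 in the parental one, whereas that of 4 epithelial genes never exceeded 8.62. The blood cell markers summed to 68.6 to 247 in treated libraries, 61.7 to 1067 in DMSO libraries and 156 in the parental one, of which CD79A, a B cell receptor component, reached 1049.9 and lay above the minimum in every library. The part of these markers in the results was not tested. In 3 libraries short structured RNAs stood far above the rest: R1 at time point 3 (treated), and R9 and R10 at time point 2 (both DMSO). Results that rest on them are given with and without them where both were computed.

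RNA polymerase III makes short, structured RNAs that mostly work inside RNA-protein particles. RN7SL1 and its near-copy RN7SL2 are the 7SL RNA of the signal recognition particle, which carries ribosomes that are making secreted or membrane proteins to the endoplasmic reticulum. RN7SK is the scaffold on which HEXIM proteins hold the elongation kinase P-TEFb inactive. RMRP is the RNA of RNase MRP, which cuts precursor ribosomal RNA, and RPPH1 the RNA of RNase P, which trims the 5′ end of precursor transfer RNAs. RNU6ATAC is the U6atac RNA of the minor spliceosome, which removes the rare U12-type introns and pairs with U4atac before it is activated.

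The sequence of RNU6ATAC, the member with the called slopes, is that of GENCODE v29 on GRCh38 (chr9:134164439-134164564, minus strand), 5′ to 3′. Capitals mark the run of 6 T at the 3′ end, the kind of run at which RNA polymerase III stops.
RNU6ATAC: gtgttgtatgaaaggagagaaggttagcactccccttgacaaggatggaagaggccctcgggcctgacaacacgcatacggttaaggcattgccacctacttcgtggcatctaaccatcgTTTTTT
RN7SL1 (chr14:49586580-49586878, plus strand) is 299 bases long and 98.3% identical to RN7SL2 (chr14:49862550-49862849, minus strand), so how reads are shared among the 7SL genes bears on every 7SL value. RN7SL3 (chr14:49853616-49853914, minus strand) is a further 7SL gene, not one of the members, and is 97.7% identical to RN7SL1.

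The 4 RNAs at the bottom of the scale are described first. RN7SL2, RN7SK, RMRP and RPPH1 each equalled the lowest value of the library in all 73 libraries, which ranged from 0 to 0.0513. No library, lineage or arm stood apart for any of them, and no fold change or test can be given. Of the 6 members, 2 lay above the minimum in at least 1 library, and the same 2, RN7SL1 and RNU6ATAC, passed the filter of a mean of at least 10. Lying at the minimum in every library was shared by 5149 of the 36233 genes (14.2%). By the gene classes of RefSeq it held for 3.43% of protein-coding genes, 40.3% of small nuclear RNA genes (27 of 67) and 44.4% of small nucleolar RNA genes. TERC, the RNA of telomerase, the minor spliceosome RNAs RNU11 and RNU12, the vault RNA VTRNA1-1 and the 5S ribosomal RNA gene RNA5S1 were also at the minimum in all 73.

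The mRNAs of the protein partners of these RNAs were all measured above the minimum. Each of the 7 genes for the 7SK particle and P-TEFb lay above the minimum in every library, with medians of 338 for LARP7, which binds the 3′ end of 7SK, 359 for MEPCE, which caps it, and 593 for CDK9, the kinase of P-TEFb. The same held for the 11 genes for RNase P and RNase MRP proteins. Their medians spanned 17.5 for RPP21 to 914 for POP1, the largest protein subunit. The 8 genes for signal recognition particle proteins and its receptor had medians of 215 (SRP19) to 2308 (SRP72). These are levels in values not corrected for length and set no order between genes.

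**Figure D1:**
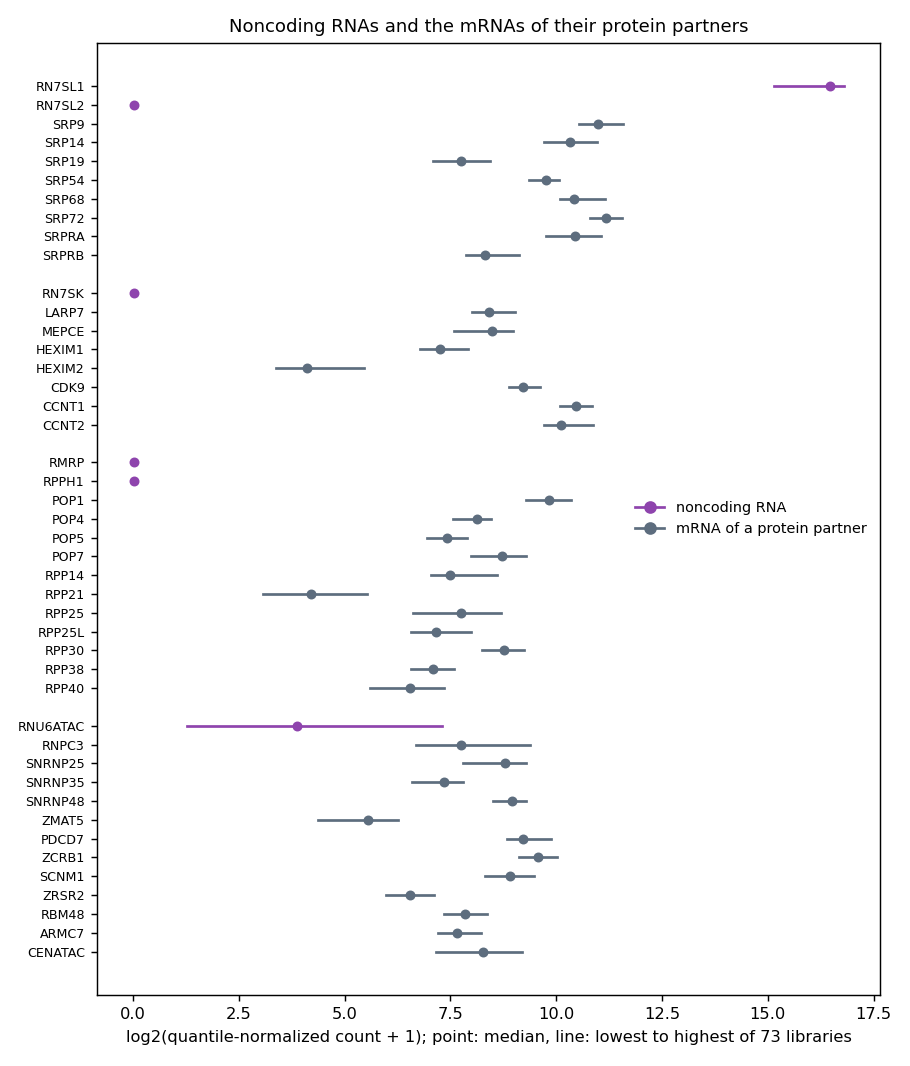
Levels of the 6 noncoding RNAs and of the mRNAs of their protein partners, on the x axis as log2 of the quantile-normalized count plus 1; points are medians and lines run from the lowest to the highest of 73 libraries. RN7SL2, RN7SK, RMRP and RPPH1 sit at 0 with no spread, while every protein partner lies above the minimum.

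Sequence and annotation around the members differ as follows. In windows of 50 bases, RN7SL1 shared 211 of its 250 windows with transcripts of genes elsewhere in the genome on either strand, RN7SL2 217 of 251 and RN7SK (chr6:52995621-52995948) 215 of 279. RNU6ATAC (chr9:134164439-134164564) shared 34 of 77. RMRP (chr9:35657751-35658018) and RPPH1 (chr14:20343075-20343407) shared none, so RNAs with and without such copies were at the minimum. In GENCODE v29 each of the 4 RNAs at the minimum overlaps a second entry on the same strand: RN7SK overlaps RF00100, RN7SL2 lies in AL627171.2, RPPH1 in AL355075.4, and RMRP is entered under 2 identifiers. RN7SL1 also has such a neighbour (AL139099.4), and RPS29 on the opposite strand, whereas RNU6ATAC and RN7SL3 overlap no other gene. The annotation behind the deposited counts, its handling of reads with several matches and of overlapping genes are not given in the sources used here, and their part in these values was not tested.

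The numbered copies of these RNAs scattered through the genome filled in little. The table has 663 RN7SL copies, of which 91 were at the minimum in every library and 13 passed the filter. Their summed value had a median of 1154, and the copy with the highest mean was RN7SL4P (median 163). The 222 RN7SK copies summed to a median of 388, led by RN7SKP29 (median 79.6) and RN7SKP23 (median 63.0), although RN7SK itself was at the minimum. The 38 RNU6ATAC copies summed to a median of 14.9, and none passed the filter. The only RMRP copy was at the minimum in every library, and the 2 RPPH1 copies together never exceeded 1.41. Reads of a parent gene and of a close copy cannot be told apart in these values.

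RN7SL1, the 7SL RNA of the signal recognition particle, stood at the top of the scale. Its median was 90305 in treated libraries (35961 to 114345) and 114407 in DMSO libraries (41936 to 114407), and it was 64979 in the parental library. Per base of length the median over 73 libraries was 302 for RN7SL1, 3.53 for RN7SL3, 0.938 for the Y RNA RNY1 and 0.108 for RNU6ATAC. For ACTB it was 20.1, over the merged exons of all its annotated transcripts (3519 bases). No single transcript is longer than that, so the ACTB value is a lower bound. The largest value any treated library can take is 114345, and 114407 in the DMSO and parental libraries, so RN7SL1 could not go higher where it was already first. Its value took 11 distinct levels over 49 treated libraries and 8 over 23 DMSO libraries, each the step of a rank. Going from the first to the second rank changes the value 1.27-fold in treated libraries whatever the true difference.

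RN7SL1 was the largest value in 18 of 49 treated libraries and 12 of 23 DMSO libraries, but not in the parental one, where it ranked 4. ACTB was the largest in 18 treated and 6 DMSO libraries and in the parental one. The mitochondrial COX1 led 6 treated and 2 DMSO libraries, EEF1A1, which encodes a translation elongation factor, 4 and 3, and the fibronectin gene FN1 led R1 at time point 9 and, in R2, the library of time point 10. ACTG1, the gamma-actin gene, led R3 at time point 4. Every lineage had at least 1 library with RN7SL1 first, from 1 of 6 in R2 to 4 of 7 in R7 among treated lineages and from 2 of 7 in R10 to 6 of 9 in R8 among DMSO lineages. Across 73 libraries the log2 values of RN7SL1 and ACTB had a Pearson r of -0.59, which is a description only: both genes compete for the same few top ranks and share each library's composition.

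Over time, RN7SL1 led none of 6 treated libraries at time point 1, where 5 stood at 90305 and R3 at 70808.5. At time point 3 treated values spanned 38969.8 to 114345 and at time point 4 they spanned 35961, its lowest value, in R2 to 114345 in R1, with a median of 48737. At time point 8 it led 5 of 6 treated libraries, all but R6 (59514). At time point 9 the 3 treated values were 41935 in R1, 70808.5 in R5 and 114345 in R4, and at time point 10 they were 59514 in R2, 64974 in R6 and 114345 in R5. At time points 1 and 8 all treated libraries but 1 thus shared a single step, while at the others they were spread over several.

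In DMSO lineages RN7SL1 led 2 of 3 libraries at time points 1 and 2, with R8 at 90343 both times. At time point 4 it was 53468 in R8 and 48738 in R9. At time point 5 R8 had 114407, R9 had 59518 and R10 had 41936. At time point 6 R8 had 114407, R9 had 59518 and R10 had 48738, and at time point 8 R8 and R9 had 114407 and R10 had 64979. R8 held the ceiling in each of its libraries from time point 5 on, while R10 stayed below it from time point 5 on. By rank the arms overlapped at every time point at which both were sequenced. At time point 1 R8 and 5 treated libraries shared rank 2, whose step is 90343 in the DMSO arm and 90305 in the treated arm.

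**Figure D2:**
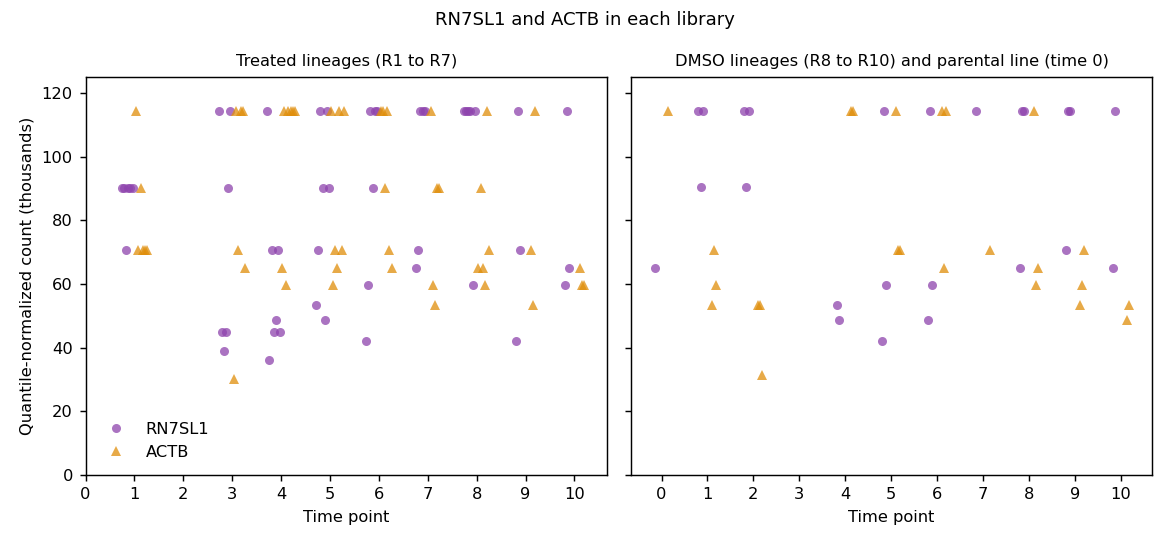
RN7SL1 (circles) and ACTB (triangles) in every library, on the y axis as quantile-normalized counts divided by 1000 and on the x axis by time point, with treated lineages on the left and DMSO lineages and the parental line (time 0) on the right. Values sit on a few shared steps below a ceiling of 114345 in treated and 114407 in DMSO libraries, and RN7SL1 or ACTB holds the top step in most libraries.

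The related gene RN7SL3 was never at the ceiling, and its values kept varying among libraries in which RN7SL1 had a single one. Its median was 997 in treated libraries (428 to 6139), 1218 in DMSO libraries (499 to 5339) and 728 in the parental one. In the 18 treated libraries that RN7SL1 led, RN7SL3 spanned 649 to 6139, and in the 12 such DMSO libraries 986 to 5339. Where RN7SL1 was at rank 5 or lower it had a median of 693 in 14 treated and 742 in 6 DMSO libraries. The 3 highest RN7SL3 values were 6139 in R1 at time point 3, against at most 2139 in other treated libraries, and 5339 in R9 and 4696 in R10 at time point 2, against at most 2416 in other DMSO libraries. RN7SL1 was at its ceiling in these 3 libraries as in the others it led.

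**Figure D3:**
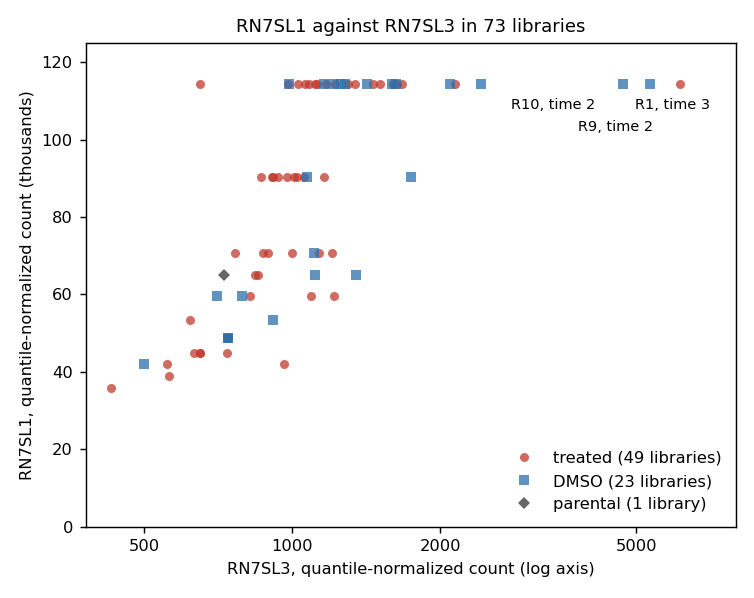
RN7SL1 as quantile-normalized counts divided by 1000 (y axis) against RN7SL3 (x axis, log scale) in 73 libraries; red circles are treated, blue squares DMSO and the black diamond parental libraries. RN7SL3 keeps rising along the top step, from 649 to 6139, where RN7SL1 cannot.

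Among genes kept for testing, RN7SL3 was the one whose log2 values followed RN7SL1 most closely over 73 libraries (Pearson r = 0.67, and 0.757 without the 3 libraries high in short RNAs). It was followed by RPS18, a ribosomal protein gene (0.669), and TPCN1, which encodes an endolysosomal cation channel (0.659). Points of 1 lineage are repeated samples, and RN7SL1 and RN7SL3 can share reads, so these values carry no test. RN7SL1 and RNU6ATAC were less alike (0.384).

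The next question was whether repeated chemotherapy left the 2 measurable members higher or lower than solvent. Fold changes are differences of log2(value + 1), and calls are at a Benjamini-Hochberg adjusted p under 0.05 over 14565 genes in limma. With each lineage given 1 value adjusted for time point, RN7SL1 had 16.32 ± 0.17 in 7 treated lineages and 16.30 ± 0.29 in 3 DMSO lineages (log2, SD over lineages). Treated lineages lay between 16.09 and 16.58 and DMSO lineages between 15.99 and 16.57, so the arms overlapped. The difference was 0.019 ± 0.13 (SE; limma adjusted p = 0.958). Without the 3 libraries high in short RNAs it was 0.028. RN7SL1 stood at the ceiling in 18 of 49 treated and 12 of 23 DMSO libraries, where a further difference cannot be seen, so this value sets no limit on a difference in the RNA itself.

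RNU6ATAC had 4.02 ± 0.31 in treated lineages and 4.30 ± 0.56 in DMSO lineages on the same scale. Treated lineages ran from 3.47 in R3 to 4.45 in R7, and DMSO lineages from 3.87 in R8 to 4.93 in R9, so these overlapped too. The difference of -0.29 ± 0.24 did not pass (SE; limma adjusted p = 0.606), nor did it in an exact permutation test over 120 splits of the lineages (2-sided p = 0.342). Without the 3 libraries high in short RNAs the RNU6ATAC difference was -0.27 (2-sided exact permutation p = 0.333). None of the 2 tested members passed over all time points, where 0% of all genes did in limma. There 1968 genes had an unadjusted p under 0.05 in limma. Without R8 limma called 1357 genes over all time points. At single time points none passed either. Among all genes 0% were called in limma at time points 1 and 4 to 8, 1.33% at time point 9 and 0.0618% at time point 10, with 182 to 2171 genes at an unadjusted p under 0.05 per time point.

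RNU6ATAC, the U6atac RNA of the minor spliceosome, was read at low values. Its median was 13.2 in treated libraries (1.43 to 143), 17.9 in DMSO libraries (6.45 to 158) and 18.3 in the parental one. The highest values were 143 in R1 at time point 3 and 158 in R9 and 96.8 in R10 at time point 2. All other libraries lay between 1.43 and 39.6. Its spread within groups, an SD of 0.951 on the log2 scale, was at or above that of 94.8% of the tested genes, whose median was 0.281; without the 3 libraries it was 0.829. RN7SL1 had an SD of 0.512, on the capped part of the scale.

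Treated lineages had RNU6ATAC values of 7.19 to 18.7 at time point 1 (median 9.82) and 4.42 to 143 at time point 3 (median 23.0). At time point 4 they were lowest, 1.43 to 13.6 (median 8.87), with R2 at 1.43 and R1 at 2.53. They spanned 4.83 to 32.0 at time point 5, 10.0 to 39.6 at time point 6 and 5.38 to 38.2 at time point 8. At time point 7 they were 8.71 in R1, 15.0 in R2, 26.9 in R5, 5.08 in R6 and 21.8 in R7. The late libraries had 36.7 in R1, 13.04 in R4 and 15.1 in R5 at time point 9, and 23.2 in R2, 13.7 in R5 and 13.3 in R6 at time point 10. The 6 treated libraries of the last 2 time points lay between 13.04 and 36.7, and each of those 2 time points holds only 3 of the 7 lineages.

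Among DMSO lineages R8 had 12.6, R9 had 24.1 and R10 had 23.6 at time point 1, and 17.9, 158 and 96.8 in that order at time point 2. The later values were 7.67 in R8 and 34.4 in R9 at time point 4, 25.6 in both R8 and R9 but 9.72 in R10 at time point 5, and 30.9, 6.95 and 8.31 in R8, R9 and R10 at time point 6. R8 alone was sequenced at time point 7, with 10.5. They were 14.2, 31.7 and 24.8 at time point 8 and 7.41, 27.3 and 15.4 at time point 9, again in R8, R9 and R10. At time point 10 they were 6.94 in R8 and 6.45 in R10, both below all 3 treated libraries. That was the only time point shared by the arms at which the groups did not overlap with more than 1 library each. The difference there was 1.16 (SE 0.85, limma adjusted p = 0.633) and did not pass. The share of all genes without overlap there was not computed.

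**Figure D4:**
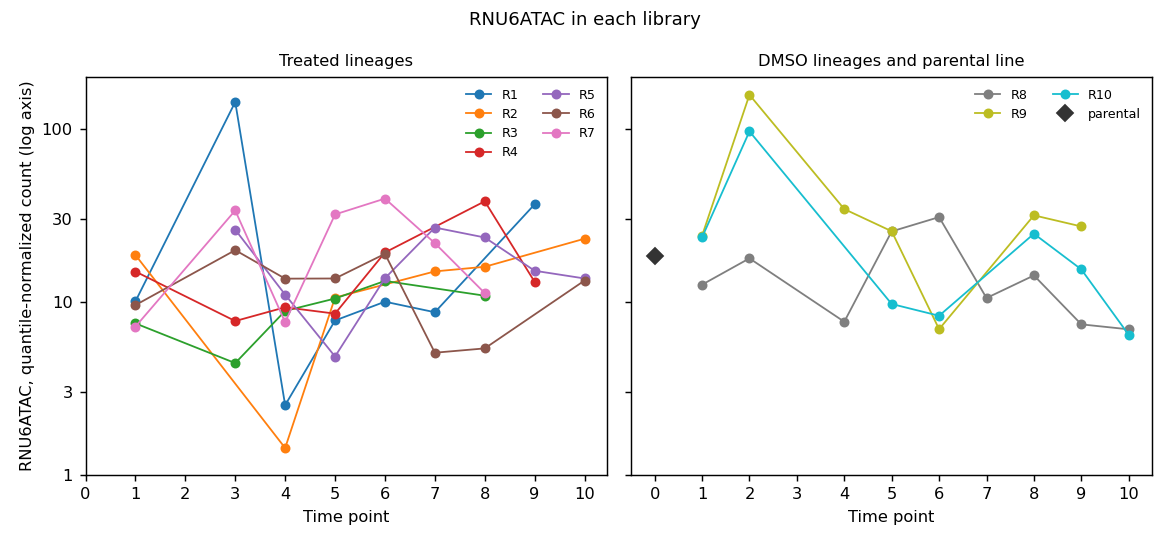
RNU6ATAC in every library as quantile-normalized counts on a log y axis, by time point on the x axis, with 1 coloured line per lineage; treated lineages are on the left and DMSO lineages and the parental line (diamond) on the right. R1 at time point 3 and R9 and R10 at time point 2 stand at 96.8 or higher, and all other libraries lie between 1.43 and 39.6.

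Change over time was measured as the least squares slope of log2(value + 1) on time point in each lineage. RNU6ATAC slopes in treated lineages were 0.022 in R1, 0.13 in R2, R3 and R4, 0.036 in R5, -0.069 in R6 and 0.11 in R7. In DMSO lineages R8 had -0.086, R9 had -0.16 and R10 had -0.22. With all libraries the slope was positive in 6 of 7 treated lineages and in none of the 3 DMSO lineages. The arms did not overlap. How many of all genes separate the arms in this way was not computed.

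In treated lineages RNU6ATAC rose by 0.070 ± 0.025 per time point (SE; limma adjusted p = 0.0472, Benjamini-Hochberg), and in DMSO lineages it fell by 0.16 ± 0.039 (SE; limma adjusted p = 0.0373, Benjamini-Hochberg). These calls stand among many: 39.4% of all genes were called in treated lineages, 15.6% rising and 23.8% falling, and 9.87% in DMSO lineages, 4.55% rising and 5.31% falling. These shares were far smaller without time point 1, where 426 genes were called in treated lineages and 0 in DMSO lineages in limma, against 5741 in treated and 1437 in DMSO lineages with it. The difference of slopes was 0.23 ± 0.046 (SE) and did not pass over all genes (limma adjusted p = 0.476), where 0% did and 1332 genes had an unadjusted p under 0.05 in limma. As a single value it had a 2-sided exact permutation p of 0.00833, the smallest that 120 splits of 10 lineages can give. The permutation was run for the tested members only, so the share of all genes that reach this p is not known.

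These slope calls depended on the libraries used and on the settings of the analysis. Without the 3 libraries high in short RNAs the mean slope was 0.10 in treated and -0.060 in DMSO lineages; the treated call held (limma adjusted p = 0.0204), the DMSO call did not (limma adjusted p = 0.345), and the exact permutation p of the difference was 0.0167. With the 2 libraries that FN1 led left out, the treated slope was 0.026, neither call held, and the exact permutation p of the difference was 0.0667. The arms overlapped in both settings. Without the 3 libraries R6 (treated) had -0.069, below -0.0014 in R9 (DMSO). With the libraries that FN1 led left out, R1 (treated) had -0.22, below -0.086 in R8 (DMSO). Over 19 alternatives the treated call was lost in 14 and the DMSO call in 7.

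**Figure D5:**
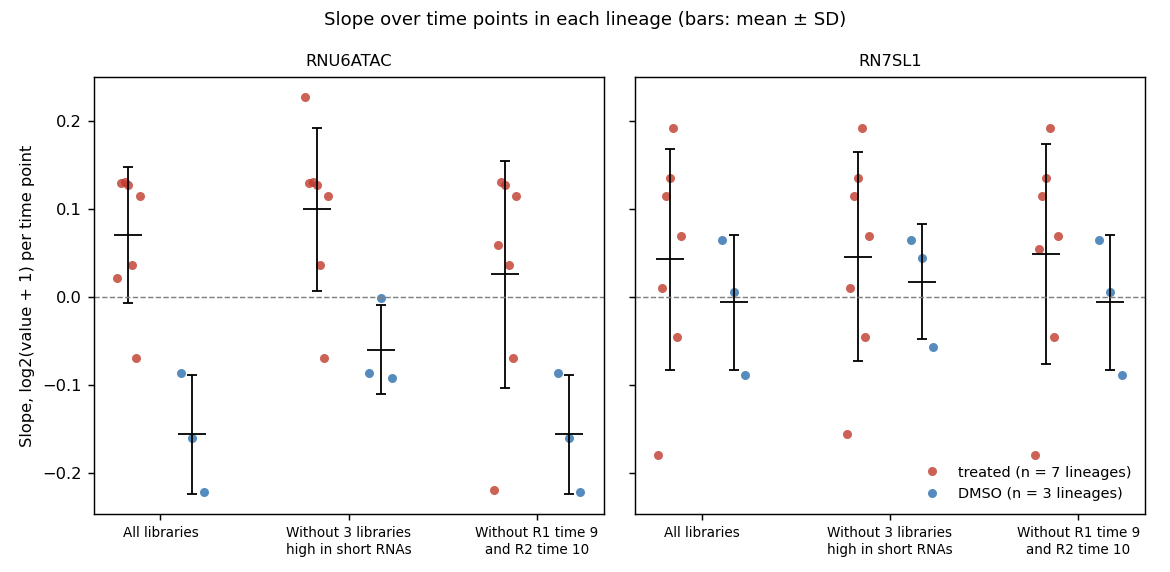
Slope of log2(value + 1) per time point in each lineage for RNU6ATAC (left) and RN7SL1 (right), with treated lineages in red to the left of DMSO lineages in blue; bars show the mean ± SD over 7 treated and 3 DMSO lineages, for all libraries and with the named libraries left out. For RNU6ATAC the arms do not overlap with all libraries but overlap in the other settings, whereas for RN7SL1 they overlap in each of the 3 settings.

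RN7SL1 slopes were -0.18 in R1, 0.011 in R2, 0.11 in R3, 0.14 in R4, 0.19 in R5, -0.045 in R6 and 0.069 in R7, against 0.064, 0.0055 and -0.088 in R8, R9 and R10 in DMSO. Both arms held rising and falling lineages, and they overlapped. Neither the treated mean of 0.043 ± 0.038 (SE; limma adjusted p = 0.395) nor the DMSO mean of -0.0060 ± 0.058 (SE; limma adjusted p = 0.948) passed, and the difference of 0.049 ± 0.070 (SE) did not either (limma adjusted p = 0.842). The ceiling limits what such a slope can show. RN7SL3, free of the ceiling, had 0.068 ± 0.034 in treated and -0.051 ± 0.053 in DMSO lineages (SE; limma adjusted p = 0.138 and 0.513), and without the 3 libraries 0.088 in treated (limma adjusted p = 0.0230) and 0.040 in DMSO lineages (limma adjusted p = 0.496).

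Treated lineages saw both regimens, so libraries after VDC were set against those after EC within each lineage. RNU6ATAC was 0.33 ± 0.31 higher after VDC (SE; limma adjusted p = 0.635), and RN7SL1 0.13 ± 0.17 higher (SE; limma adjusted p = 0.749); neither passed, as for 0% of all genes, with 2118 at an unadjusted p under 0.05 in limma. Over 20 alternatives, among them leaving out the 3 libraries high in short RNAs, the RNU6ATAC value stayed between 0.11 and 0.50. DMSO lineages served as the background of the odd against even time points. Averaged over each lineage's own libraries, RNU6ATAC was higher at odd time points in 4 of 7 treated lineages, from 1.82 in R1 to -0.78 in R4, and lower in all 3 DMSO lineages, from -0.080 in R8 to -0.38 in R9. The values of R1, R9 and R10 include the 3 libraries high in short RNAs and were not computed without them, so their signs may rest on those libraries. The difference between arms was 0.68 ± 0.52 for RNU6ATAC and -0.015 ± 0.28 for RN7SL1 (SE; limma adjusted p = 0.914 and 0.997), with 0% of genes called and 685 at an unadjusted p under 0.05. Without the 3 libraries the value for RNU6ATAC was 0.18: the treated one of them is at an odd and the DMSO ones at an even time point.

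The genes most like RNU6ATAC over 73 libraries were other short structured RNAs. RNY1, a Y RNA that polymerase III also makes, had a Pearson r of 0.846 with it, and RNU5B-1 and RNU5A-1, genes for the U5 RNA that both spliceosomes use, had 0.808 and 0.780. Without the 3 libraries the values were 0.752, 0.676 and 0.619. RNU4ATAC, the gene for the U4atac partner of U6atac, had 0.656, and 0.519 without them. These are descriptions over libraries that share lineages and handling, with no test.

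The same RNAs marked the 3 libraries. RNY1 was 685 in R1 at time point 3, against at most 239 in other treated libraries, and 830 in R9 and 673 in R10 at time point 2, against at most 274 in other DMSO libraries. The sum over short structured RNAs of polymerase II, such as the U4 and U5 RNAs and small Cajal body RNAs, was 26723 in R1 at time point 3, against at most 7390 in other treated libraries, and 23115 and 18555 in R9 and R10, against at most 7535. Mitochondrially encoded genes were highest in the same 3 libraries too, with sums of 486847 in R1, against at most 278414 in other treated libraries, and 358813 in R9 and 378999 in R10, against at most 297050 in other DMSO libraries. Ewing sarcoma marker sums there were 6344 in R1, 6881 in R9 and 7696 in R10, inside the range of the other libraries, and so were the blood cell marker sums of 152 in R1, 99.8 in R9 and 155 in R10. What sets these libraries apart was not tested. Of RN7SL1 they show only the ceiling.

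Other polymerase III transcripts in the list used here were mostly unread: 15 of 19 are in the table, 12 lay above the minimum in some library, and 2, RN7SL3 and RNY1, were tested. RNY1 rose by 0.11 ± 0.034 per time point in treated lineages (SE; limma adjusted p = 0.0278), and had -0.035 ± 0.052 in DMSO lineages (SE; limma adjusted p = 0.655), where the value was 0.063 without the 3 libraries. The RNY1 call in treated lineages held without the 3 libraries (limma adjusted p = 0.00421) but was lost with no filter on low values (0.0560), without 4 late DMSO libraries (0.0709), without the 2 libraries that FN1 led (0.144) and without time point 1 (0.184), all limma adjusted p, which spanned 0.0151 to 0.0747 over left-out lineages. None of the 11 tested short structured RNAs of polymerase II differed over all time points. In treated lineages 1 rose, RNU4ATAC, by 0.079 ± 0.026 (SE; limma adjusted p = 0.0322), and in DMSO lineages 2 small Cajal body RNAs fell: SCARNA21 by 0.22 ± 0.029 and SCARNA17 by 0.17 ± 0.034 (SE; limma adjusted p = 0.0174 and 0.0258). These counts of 1 and 2 of 11 stand beside 39.4% of all genes in treated and 9.87% in DMSO lineages. Without the 3 libraries 2 rose in treated and 2 fell in DMSO lineages, beside 5634 and 1534 of 14565 genes called in limma. All 11 had a positive difference of slopes, with a median of 0.13 against 0.0013 over all genes, and none of these differences passed. Without the 3 libraries all 11 were still positive, with a median of 0.070. RNU6ATAC had a difference of the same sign. All were read in the same libraries, so they are not separate observations. The sign was not particular to short RNAs. Of 13 mitochondrially encoded genes 12 had a positive difference of slopes (median 0.084), and 11 without the 3 libraries (median 0.036), and none passed.

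The genes that make and carry these RNAs gave no call between the arms over all time points in limma, treated against DMSO: 0 of 13 polymerase III subunits, 0 of 20 initiation factors and regulators, 0 of 8 signal recognition particle genes, 0 of 7 genes of the 7SK particle, 0 of 11 of RNase P and MRP and 0 of 12 of the minor spliceosome passed. Medians of these lists lay between -0.066 and -0.033, beside -0.0036 over all genes. Over time, 2 of 13 polymerase III subunits rose and 3 fell in treated lineages. Without the 3 libraries high in short RNAs 3 rose and 3 fell. The subunit POLR3D rose by 0.047 ± 0.0094 per time point in treated lineages and by 0.056 ± 0.014 in DMSO lineages (SE; limma adjusted p = 0.00503 and 0.0388). Of the 20 initiation factors and regulators, 4 rose and 1 fell in treated lineages and none passed in DMSO lineages. With all libraries 39.4% of all genes were called in treated and 9.87% in DMSO lineages. SNAPC1, a subunit of the complex that starts snRNA genes, rose by 0.063 ± 0.019 and SSB, the La protein that binds the 3′ ends of new polymerase III transcripts, by 0.059 ± 0.013, while BRF1, a subunit of TFIIIB, fell by 0.046 ± 0.014 (SE; limma adjusted p = 0.0262, 0.00675 and 0.0231).

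Among the protein partners of RN7SL1 and RN7SL2, 2 rose and 1 fell in treated lineages and none passed in DMSO lineages. SRP68 rose by 0.042 ± 0.012 and SRP19, which helps assemble the particle on 7SL RNA, fell by 0.046 ± 0.011 (SE; limma adjusted p = 0.0214 and 0.00802). Of the 7SK particle only LARP7 passed in treated lineages, which fell by 0.030 ± 0.011 (SE; limma adjusted p = 0.0462), and without the 3 libraries none did. Of the RNase P and MRP proteins 1 rose, RPP14, by 0.058 ± 0.015, and 2 fell, RPP25 by 0.067 ± 0.019 and POP1 by 0.037 ± 0.013 (SE; limma adjusted p = 0.0126, 0.0180 and 0.0413). All these counts stand beside the 39.4% of all genes called in treated lineages and the 9.87% called in DMSO lineages.

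The minor spliceosome, the partner of RNU6ATAC, had 1 gene rising and 4 falling of 12 in treated lineages, and 1 rising and 1 falling in DMSO lineages, beside 39.4% of all genes in treated and 9.87% in DMSO lineages. SCNM1, a splicing protein, rose by 0.091 ± 0.012 per time point in treated lineages and by 0.072 ± 0.019 in DMSO lineages (SE; limma adjusted p = 0.00206 and 0.0411). RNPC3, the protein that bridges U11 and U12 RNA, fell by 0.12 ± 0.029 in treated and by 0.17 ± 0.045 in DMSO lineages (SE; limma adjusted p = 0.0119 and 0.0412). CENATAC, a protein of the minor tri-snRNP, fell by 0.12 ± 0.026 in treated lineages (SE; limma adjusted p = 0.00786). No gene of any of these lists differed between the arms in slope, and the arms' slopes of SCNM1 and RNPC3 had the same sign.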

How the data were processed

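RNA was extracted from CHLA-9 cultures with a Qiagen AllPrep kit and reads were aligned with STAR (per the labels' protocols). GRCh38 and featureCounts are named in the submitters' processing notes. The deposited values are a signal, counts that the authors quantile-normalized, for 36233 genes in 73 libraries: each treated library sums to 13583520 and each DMSO or parental library to 13582508. How the normalization was done, the library type and the annotation are not given in the sources used here. Depth is unknown, so no counting interval is given, and no value can pass the largest of its library.

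The 6 members, the gene lists and the tests were chosen with earlier results of these data known. Values were analysed as log2(value + 1) on 14565 genes (filter: mean value 10 or more). Fits used limma 3.58.1 with a trend and the package data.table, version 1.17.8, under R 4.3.3, and p-values were adjusted over all tested genes by Benjamini-Hochberg with a threshold of 0.05. Over all time points and for slopes, each lineage gave 1 value or 1 slope, and 7 treated were set against 3 DMSO lineages; single time points were contrasts of arm and time point means in a fit of 72 libraries. VDC and EC were compared with the lineage as replicate block and a linear time term. By the labels a replicate number is a lineage, sampled again at each time point; deviations of libraries of 1 lineage had a mean correlation of 0.0814 (219 pairs), and other libraries of an arm -0.0152 (1050 pairs). Single values were tested by exact permutation over lineages.

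Named were the 6 members, ACTB, from each list up to 3 called genes with the largest differences or else the smallest p, the 3 genes most like each tested member, and the highest copies of each member. Genes without a symbol of their own were left out of likeness. Further genes were named after their values were seen: CD79A, TERC, RNU11, RNU12, VTRNA1-1, RNA5S1, the protein partners whose levels are given, and the genes that led a library. A gene that this rule picks, and the sequences of the 7SL genes, are not reported here. The sequence and loci come from GENCODE v29 and classes from RefSeq, handled with Python 3.11.15, pandas 2.3.3 and Biopython 1.88; figures used matplotlib 3.10.9. On simulated data with 200 changed genes among 14565, a log2 difference of 1 was recovered for 93.8% over all time points and 92.3% after VDC; a change of 1 over the course was recovered for 60.3% in treated and 45.2% in DMSO slopes. Of the calls in these simulations, unchanged genes made up 7.68%, 4.59%, 2.44% and 2.01% in the same order. Simulated libraries were drawn independently, with no lineage effect, rank step or ceiling, unlike the real ones. The changed genes were random ones, while RNU6ATAC had a within-group SD of 0.951 against a median of 0.281. These shares therefore do not give the power for RN7SL1 or RNU6ATAC. Alternatives were another pseudocount, filter, scaling and normalization, limma without trend, the block, and leaving out lineages, libraries and time points.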

Additional observations from a re-analysis of the deposited data

Results flagged for a closer look

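In 18 groups of 4 to 10 values examined for RN7SL1 and RNU6ATAC, 2 had a value far from the others. The groups were the treated libraries of 1 time point, or the adjusted values or slopes of the treated lineages. The rate of 1 in 20 by chance for this measure assumes values without shared steps. It does not apply to RN7SL1, so the count is a description and not a test. RN7SL1 was 70808.5 in R3 at time point 1, while each of the 5 other treated libraries stood at 90305. It was 59514 in R6 at time point 8, while each of the 5 other treated libraries stood at 114345. In both groups the others share 1 rank and hence 1 value, so any library at another rank is far from them by this measure.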

How the results depend on the processing

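Of the member values recomputed under alternatives, 507 kept direction and side of the threshold, 21 changed sign, 21 lost a call and 1 gained one. Leaving out the 3 libraries high in short RNAs was added after seeing the data. Of the 2 tested members, 1 was called for the treated slope and 1 for the DMSO slope. The treated count was 0 with pseudocount 10, no filter on low values, without 4 late DMSO libraries, without the 2 libraries that FN1 led, without time point 1 and with limma without trend. The DMSO count was 0 with no filter, without the 2 libraries that FN1 led, without time point 1 and without the 3 libraries. Leaving out 1 lineage at a time gave 0 to 1 called for either slope and for the difference of slopes. The treated call was lost in most of these lineage runs, and in 14 of all 19 alternatives. RNU6ATAC passed the difference of slopes without R8 (0.26, limma adjusted p = 0.0493). The cause was not tested.

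Every sign change was in a value that passed no test. RNU6ATAC at time point 9 became -0.065 without the 2 libraries that FN1 led, and -0.076 to 0.80 over left-out lineages. RN7SL1 over all time points was -0.10 with no adjustment for time point and -0.17 to 0.19 over left-out lineages. Its DMSO slope was 0.000881 with median-of-ratios scaling, 0.034 without time point 1, 0.017 without the 3 libraries and -0.041 to 0.035 over left-out lineages. Its odd against even difference between arms was 0.020 without 4 late DMSO libraries, 0.048 without the 2 libraries that FN1 led, 0.10 without time point 1 and -0.093 to 0.11 over left-out lineages. At time points 5, 8 and 10 it ranged from -0.058 to 0.67, -0.16 to 0.27 and -0.59 to 0.23 over left-out lineages. Without the replicate block RNU6ATAC was 0.37 and RN7SL1 0.11 higher after VDC (limma adjusted p = 0.560 and 0.798), and the block changed no call. RN7SL1 stood at the ceiling in some libraries and RNU6ATAC had low values, at an unknown depth. Their part in these changes was not tested.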
